A study of Mus musculus with 26 samples.

Results

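Endothelial loss of *Traf7* was examined in whole mouse embryos at embryonic day E9.5, by comparing 7 *Traf7*-ECko embryos (endothelial cell knockout) with 7 *Traf7*-EChet embryos (endothelial heterozygote). These are 14 of the 26 embryos of the series, chosen by their genotype label alone, and both groups were described over 17505 of the 54532 genes in the table. *Traf7*-ECko embryos carry 2 floxed *Traf7* alleles and the *Tie2-Cre* transgene (*Traf7* fl/fl;*Tie2-Cre*+). *Traf7*-EChet embryos carry 1 floxed and 1 intact allele with the same transgene. Cre is thus present in both groups and, after recombination, they differ by a single copy of *Traf7*. The study's methods name crosses with *Traf7* fl/- as well as fl/fl animals, and the labels do not give the alleles of each embryo. The floxed allele was made on the C57BL/6 background. *Tie2-Cre* acts in early endothelium and also in hematopoietic cells, but not in cardiac or smooth muscle. Most cells of either kind of embryo thus keep the *Traf7* alleles they inherited. No embryo was treated, each embryo was freed of its yolk sac, stored in RNAlater and sequenced as 1 library on an Illumina platform, and the labels do not say which embryos were littermates. The question was which transcripts differed in every knockout and which differed in some of them only.

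TRAF7 is an E3 ubiquitin ligase with a RING finger and WD40 repeats that binds the kinase MEKK3. MEKK3, MEK5 and ERK5 form a kinase cascade through which flowing blood acts on endothelial cells, and ERK5 switches on MEF2 factors, which bind the promoter of *Klf2*. KLF2 is a zinc finger transcription factor of endothelium under flow, and its targets include genes of vessel tone and water transport. When tissue oxygen is low, the HIF factors bind a short element, the hypoxia response element, beside genes of glycolysis, glucose uptake and blood vessel growth.

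Levels are given in FPKM, the unit of the deposited table, in which the fragments of a gene are divided by its length and by library depth. Between 17937321 and 25364652 reads fell in genes per embryo, and at equal depth 18735 to 20499 genes were detected in *Traf7*-ECko embryos and 19859 to 20538 in *Traf7*-EChet embryos, the fewest in ECko 3. By *Xist* and Y-linked transcripts, 4 *Traf7*-ECko embryos (ECko 1, 3, 4 and 7) and 1 *Traf7*-EChet embryo (EChet 1) were female, so that sex was uneven between the groups. Differences are log2 fold changes, *Traf7*-ECko minus *Traf7*-EChet, of log2(FPKM + 0.1), which understates the change of weakly expressed genes. They were tested with limma over all 17505 genes, and a gene is called where the Benjamini-Hochberg adjusted p is 0.05 or less. A gene is without overlap where all 7 embryos of one group lie beyond all 7 of the other.

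*Traf7* itself (mm10 chromosome 17, 24508562 to 24527938) was only slightly lower in the knockouts. Its level in *Traf7*-ECko embryos was 13.6 at the lowest, 16.9 at the median and 20.4 FPKM at the highest, against 18.8, 20.5 and 22.7 FPKM in *Traf7*-EChet embryos. The groups overlapped: 5 of 7 *Traf7*-ECko embryos lay below every *Traf7*-EChet embryo, with ECko 5 lowest, and ECko 4 lay well inside the heterozygous range. The log2 fold change was -0.24 (SE 0.08), with adjusted p = 0.203 and an exact two-sided permutation p of 0.00699. In whole embryos a deletion limited to the *Tie2* lineage leaves the transcript of all other cells in place, so that this level does not measure how complete the deletion was.

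Across the transcriptome, few genes were called. In *Traf7*-ECko embryos 10 genes rose (0.0571% of those tested) and 7 fell (0.04%), 17 in all (0.0971%). A single gene, *Klf2*, was both called and changed at least 2-fold (0.00571%). At an unadjusted p under 0.05 there were 2530 genes (14.5%), 1407 higher and 1123 lower, and 51 genes had an adjusted p of 0.10 or less. Without overlap were 48 higher genes (0.274%) and 42 lower genes (0.24%), of which 15 were also called. Entering the sex of the embryo as a covariate left 0 genes called by limma (1610 at an unadjusted p under 0.05), and the fit on male embryos alone, 3 against 6, also left 0 (1874). All 17 genes kept their direction in both of these fits, with adjusted p from 0.0564 to 0.157 and from 0.145 to 0.319. Leaving out 1 embryo gave between 3 genes (without ECko 3) and 51 genes (without ECko 6), and *Klf2*, *Galk1* and *mt-Nd5* were called in all 14 of these fits, *Trappc6a* in 13, *Gm28439* in 7 and the other 12 genes in 2 to 5.

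*Klf2* (mm10 chromosome 8, 72319033 to 72321656) fell in every knockout. It was 0.907 at the lowest, 1.53 at the median and 2.40 FPKM at the highest in *Traf7*-ECko embryos, against 3.4, 4.07 and 5.37 FPKM in *Traf7*-EChet embryos. ECko 7 was lowest and ECko 5 highest, and a clear gap separated the groups. The log2 fold change was -1.34 (SE 0.17), with adjusted p = 0.00911, and the exact two-sided permutation p was 0.000583, the smallest that 7 against 7 embryos can give. In whole embryos, fewer cells of a type and less RNA in each cell cannot be told apart, here and in every result that follows. Within the male embryos the log2 fold change was -1.06 (SE 0.16, adjusted p = 0.145), and with sex as a covariate it was -1.22 (SE 0.18, adjusted p = 0.0581).

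The promoter of *Klf2* is shown because MEF2 factors, the end of the MEKK3 cascade, bind it. The window runs from 250 bases before to 50 bases after the start site (RefSeq, GRCm38.p6, chr8:72318812-72319111, plus strand), 5′ to 3′, with the match to the MEF2 element in capitals.
Klf2: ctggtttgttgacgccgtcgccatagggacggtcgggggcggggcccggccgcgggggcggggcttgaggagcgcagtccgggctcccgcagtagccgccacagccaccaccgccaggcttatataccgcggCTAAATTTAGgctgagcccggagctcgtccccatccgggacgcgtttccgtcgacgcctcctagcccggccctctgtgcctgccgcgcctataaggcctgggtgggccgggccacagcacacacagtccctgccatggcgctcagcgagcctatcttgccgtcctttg
The match begins 118 bases before the start site and reads as a MEF2 element on either strand. Such a match was present in 3.19% of all 32851 promoter windows and in 2.15% of the 11629 tested genes that had a window, so that it is uncommon but not particular to *Klf2*. A match is a description of the letters and not evidence of binding.

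Of the 18 flow-responsive genes and KLF2 targets listed, 1 was called lower (*Klf2*) and 2 were lower without overlap, and the median log2 fold change of the list was 0.00, as over all genes. The second was *Aqp1*, the aquaporin of endothelium and red cells. Its level was 0.178 to 0.401 FPKM (median 0.255) in *Traf7*-ECko and 0.470 to 0.823 FPKM (median 0.578) in *Traf7*-EChet embryos, a log2 fold change of -0.91 (SE 0.18) that missed the threshold (adjusted p = 0.0785). *Aqp1* was weakly expressed in both groups, and its range in the knockouts stopped short of the lowest heterozygote, EChet 6. *Nos3*, which makes nitric oxide in endothelium, was 1.78 to 2.89 against 2.24 to 3.53 FPKM (-0.34, SE 0.11, adjusted p = 0.224). *Klf4*, the close relative of *Klf2*, was 0.523 to 0.865 against 0.425 to 0.799 FPKM, with overlapping groups (0.14, SE 0.16, adjusted p = 0.724). None of the 13 listed genes of the MEKK3 cascade and its CCM partners was called or without overlap. Of these, the smallest p belonged to *Mapk7*, which encodes ERK5, at 19.2 to 21.9 against 17.0 to 20.5 FPKM (0.13, SE 0.05, adjusted p = 0.249).

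**Figure D1:**
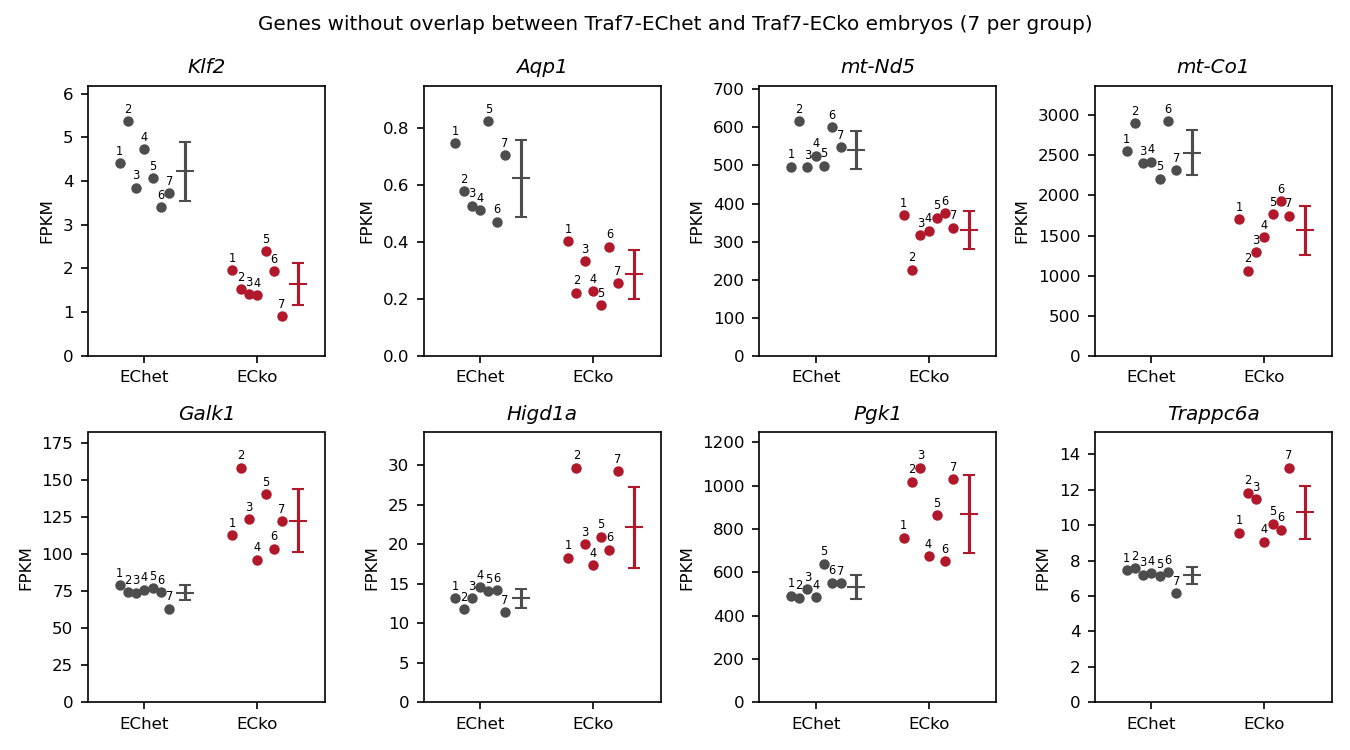
FPKM of 8 genes without overlap between the groups, in each of 7 *Traf7*-EChet (grey) and 7 *Traf7*-ECko (red) embryos; points are embryos with their replicate number, and bars are the mean and SD. *Klf2*, *Aqp1*, *mt-Nd5* and *mt-Co1* lie lower and *Galk1*, *Higd1a*, *Pgk1* and *Trappc6a* higher in all 7 *Traf7*-ECko embryos.

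Of the 7 genes called lower, 4 were messenger RNAs encoded by the mitochondrial genome. Mitochondrial mRNAs took 0.439 to 0.880% of the reads in genes in *Traf7*-ECko embryos and 0.973 to 1.25% in *Traf7*-EChet embryos, with no overlap. Of the 13 mitochondrial mRNAs, 4 were called lower, 5 were lower without overlap, 11 had an unadjusted p under 0.05 with a lower level, and the median log2 fold change was -0.68. These values take in mRNAs of low FPKM with near-identical nuclear copies, which are uncertain. *mt-Nd5*, a subunit of complex I, ranged from 226 to 374 FPKM (median 337) in *Traf7*-ECko and from 495 to 616 FPKM (median 525) in *Traf7*-EChet embryos. It fell by 0.72 on the log2 scale (SE 0.10, adjusted p = 0.00911), with ECko 2 far below the other knockouts.

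*mt-Co1*, the catalytic subunit of complex IV, was 1063 to 1927 FPKM (median 1701) against 2208 to 2925 FPKM (median 2419). It fell by 0.70 (SE 0.12, adjusted p = 0.0416). *mt-Nd4* was 226 to 480 against 546 to 714 FPKM and fell by 0.78 (SE 0.13, adjusted p = 0.0416). ECko 2 was again the lowest embryo of both, and ECko 6 the highest knockout. *mt-Nd6*, the mRNA of the opposite strand, was 227 to 382 against 455 to 658 FPKM and fell by 0.68 (SE 0.11, adjusted p = 0.0304). *mt-Nd5* and *mt-Nd6* overlap at their ends on opposite strands, and it is not stated whether counting used strand, so that their reads cannot be fully told apart. *mt-Cytb*, a subunit of complex III, was 650 to 1406 against 1524 to 2009 FPKM, without overlap, and just missed the threshold (-0.75, SE 0.14, adjusted p = 0.0514).

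Not all products of the mitochondrial genome were lower. Of the 13 mRNAs, 2 had a log2 fold change above 0, *mt-Nd3* (0.49, SE 0.17, adjusted p = 0.229) and *mt-Atp8* (0.55, SE 0.57, adjusted p = 0.696). Those of *mt-Nd4l*, *mt-Co2*, *mt-Co3* and *mt-Atp6* were -0.75, -0.52, -0.50 and -0.48. All of these mRNAs had low FPKM, and those with near-identical nuclear copies are uncertain. *mt-Nd1* and *mt-Nd2* were abundant and lower, but their groups overlapped and neither was called. *mt-Nd1* was 658 to 1872 FPKM in *Traf7*-ECko and 1727 to 2161 FPKM in *Traf7*-EChet embryos (-0.68, SE 0.20), with 5 knockouts below every heterozygote. *mt-Nd2* was 412 to 942 against 832 to 1083 FPKM (-0.45, SE 0.14), with 6 knockouts below. *mt-Rnr1*, the small ribosomal RNA of the mitochondrion, was 122 to 227 FPKM (median 140) in *Traf7*-ECko and 86.0 to 112 FPKM (median 97.2) in *Traf7*-EChet embryos, higher without overlap but not called (0.75, SE 0.15, adjusted p = 0.0861). *mt-Rnr2*, the large one, overlapped, at 38.2 to 118 against 47.6 to 77.1 FPKM (0.24, SE 0.20, adjusted p = 0.613). *Gm28439*, a nuclear pseudogene on chromosome 1 that derives from mitochondrial sequence, fell with the mitochondrial mRNAs, from 3.92 to 6.00 to between 2.08 and 3.49 FPKM (-0.77, SE 0.12, adjusted p = 0.0228); its reads cannot be told apart from mitochondrial ones where the copies match. In the comparison of groups, the nuclear side of the organelle showed no like shift, but single embryos departed. Of 60 nuclear respiratory chain genes, 0 were called by limma (5 at an unadjusted p under 0.05) and the median log2 fold change was 0.03. In ECko 6, 41 lay above every heterozygote and 0 below, against 15.3% above over all genes. In ECko 3, 28 lay below and 2 above, against 22.7% below over all genes. Of 23 tested genes of mitochondrial RNA synthesis and stability, 14 lay below every heterozygote in ECko 7 and 12 in ECko 2. The shares below over all genes were 22.8% and 20.5%, and 0 and 1 of the 23 lay above. As a group 0 of the 23 were called by limma, 7 were lower at an unadjusted p under 0.05, and the median was -0.09. *Elac2*, which trims mitochondrial tRNAs, was the first of these (18.7 to 23.5 against 22.7 to 27.1 FPKM, -0.21, SE 0.06, adjusted p = 0.190).

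*Galk1*, the galactokinase that starts galactose use, was the most clearly raised gene. It was 96.1 at the lowest, 122 at the median and 158 FPKM at the highest in *Traf7*-ECko embryos, and 63.2, 74.4 and 79.0 FPKM in *Traf7*-EChet embryos. The heterozygous embryos lay close together apart from EChet 7, and ECko 4 was the knockout nearest to them. *Galk1* rose by 0.72 on the log2 scale (SE 0.09, adjusted p = 0.00911).

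Glycolytic enzymes rose beside it. Of 21 table entries for the 20 glycolysis and lactate genes listed, 5 were called higher, 6 were higher without overlap, 0 were called lower, and the median log2 fold change was 0.42. *Pgk1*, phosphoglycerate kinase, ranged from 650 to 1082 FPKM against 483 to 640 FPKM (0.69, SE 0.12, adjusted p = 0.0416). *Tpi1*, triose phosphate isomerase, ranged from 322 to 557 against 254 to 310 FPKM (0.63, SE 0.11, adjusted p = 0.0443). *Ldha*, which makes lactate, ranged from 859 to 1257 against 658 to 851 FPKM (0.50, SE 0.09, adjusted p = 0.0416). For all of these the heterozygote nearest to the knockouts was EChet 5, and ECko 4 or ECko 6 was the lowest knockout. *Pkm*, pyruvate kinase, had groups that almost touched, at 775 FPKM in both ECko 6 and EChet 5 (0.42, SE 0.07, adjusted p = 0.0416). *Pfkl*, the liver type of phosphofructokinase, was called (0.64, SE 0.11, adjusted p = 0.0443) although ECko 4 and ECko 6 lay within the heterozygous range.

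*Higd1a*, a mitochondrial inner membrane protein induced by low oxygen, rose from 11.4 to 14.5 FPKM (median 13.2) in *Traf7*-EChet to 17.3 to 29.7 FPKM (median 20.0) in *Traf7*-ECko embryos (0.72, SE 0.12, adjusted p = 0.0416). *Mgarp* and *Fam162a*, both mitochondrial proteins induced by hypoxia, were also higher without overlap, at 3.32 to 14 against 1.86 to 3.18 FPKM and at 91.3 to 203 against 74.3 to 88.6 FPKM, but were not called (adjusted p = 0.0861 and 0.110). In all 3 genes the knockouts spread widely, with ECko 2, ECko 3 or ECko 7 at the top. *Hif1a*, the oxygen-regulated HIF subunit, lay the other way and by little, at 28.7 to 36.8 against 37.1 to 45.2 FPKM, without overlap (-0.24, SE 0.06, adjusted p = 0.148).

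The promoters of *Galk1*, *Pgk1* and *Higd1a* are shown as 3 examples of called genes that rose in every knockout and hold the core of the hypoxia response element, ACGTG on either strand, in capitals. The windows are 300 bases of RefSeq sequence (GRCm38.p6), 5′ to 3′ on the strand of the gene, at chr11:116012670-116012969 (minus), chrX:106186850-106187149 (plus) and chr9:121857747-121858046 (minus).
Galk1: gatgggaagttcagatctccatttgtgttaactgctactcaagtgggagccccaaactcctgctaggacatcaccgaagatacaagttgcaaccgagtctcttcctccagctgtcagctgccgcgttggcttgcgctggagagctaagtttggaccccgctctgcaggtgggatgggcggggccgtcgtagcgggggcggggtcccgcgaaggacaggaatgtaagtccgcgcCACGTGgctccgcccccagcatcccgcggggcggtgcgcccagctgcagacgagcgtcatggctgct
Pgk1: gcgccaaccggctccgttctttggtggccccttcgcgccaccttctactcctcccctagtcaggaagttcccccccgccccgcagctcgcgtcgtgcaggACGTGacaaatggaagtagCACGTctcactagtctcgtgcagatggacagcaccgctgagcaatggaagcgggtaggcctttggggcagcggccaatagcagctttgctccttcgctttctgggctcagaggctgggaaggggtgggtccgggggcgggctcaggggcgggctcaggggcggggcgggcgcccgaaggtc
Higd1a: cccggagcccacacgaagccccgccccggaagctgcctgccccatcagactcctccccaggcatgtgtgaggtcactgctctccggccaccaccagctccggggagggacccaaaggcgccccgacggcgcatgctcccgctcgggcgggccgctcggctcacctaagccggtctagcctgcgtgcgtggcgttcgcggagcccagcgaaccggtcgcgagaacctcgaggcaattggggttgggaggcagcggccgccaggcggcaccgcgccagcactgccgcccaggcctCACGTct
In *Galk1* the match is the palindrome CACGTG, which holds the core on both strands and is also an E-box. ACGTG or its complement was found in 19.6% of all promoter windows and in 28.5% of the tested genes with a window. It was found in 21 of the 41 higher genes without overlap that had a window (51.2%), in 10 of the 30 lower ones (33.3%) and in 19 of 26 genes of the hypoxia list (73.1%). These shares are descriptions of the letters.

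Several shared changes fell outside these groups. *Trappc6a*, a subunit of the TRAPP complex of vesicle traffic, rose from 6.16 to 7.56 to between 9.07 and 13.2 FPKM (0.57, SE 0.08, adjusted p = 0.0164). *Clybl*, a mitochondrial lyase of citramalyl-CoA, rose in 6 of 7 knockouts beyond the heterozygous range (8.74 to 14.4 against 6.82 to 9.10 FPKM, 0.61, SE 0.10, adjusted p = 0.0416). *Oxld1* rose in all 7 (5.10 to 6.65 against 2.69 to 4.72 FPKM, 0.61, SE 0.11, adjusted p = 0.0443). *Gpr63*, an orphan G protein-coupled receptor, fell in all 7 (0.764 to 1.30 against 1.41 to 2.10 FPKM, -0.67, SE 0.12, adjusted p = 0.0443). ECko 7 was highest for *Trappc6a* and *Oxld1* and ECko 2 was lowest for *Gpr63*.

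Among genes without overlap that were not called, *H2-K1*, a class I molecule of antigen presentation, had the widest margin. It was 4.97 to 12.7 FPKM (median 6.44) against 2.96 to 4.13 FPKM (median 3.66), a log2 fold change of 0.98 (SE 0.18, adjusted p = 0.0709), and its reads can be shared with near-identical class I genes. ECko 7 and ECko 3 were highest. The other class I genes overlapped: *H2-D1* was 5.41 to 8.66 against 3.43 to 6.03 FPKM and *H2-Q4* 2.51 to 4.20 against 1.67 to 3.39 FPKM (adjusted p = 0.203 and 0.190). *Cldn3*, a claudin of epithelial tight junctions, was 5.30 to 8.69 against 3.05 to 4.70 FPKM (0.64, SE 0.13, adjusted p = 0.0813). *Shmt2* and *Pycr1*, mitochondrial enzymes of serine and proline metabolism, were higher without overlap too, at 54.4 to 91.2 against 44.8 to 52.9 FPKM and 6.28 to 9.09 against 4.63 to 6.23 FPKM (adjusted p = 0.118 and 0.133).

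The knockouts were not alike even in the genes that separated the groups. Of the 48 higher genes without overlap, the knockout nearest to the heterozygotes was ECko 4 in 17 and ECko 6 in 16, and the farthest was ECko 7 in 20 and ECko 2 in 17. Of the 42 lower genes, the nearest was ECko 4 in 12 and ECko 6 in 12, and the farthest was ECko 7 in 21 and ECko 2 in 14. The same pair of embryos was thus most often nearest, and the same pair most often farthest, in both directions.

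Beyond these shared differences, many genes stood apart in some knockouts only. Genes with a mean of at least 1 FPKM were counted by the number of embryos that lay at least 1 log2 unit (2-fold) beyond every embryo of the other group, sex-linked genes left out, which gave 11973 genes. No gene did so in all 7 knockouts. In the upward direction 65 genes did so in 1 *Traf7*-ECko embryo, 23 in 2, 26 in 3 and 10 in 4. In the downward direction the counts were 120, 81, 5 and 1, with 1 gene in 5 embryos. The gene low in 4 was *Klf2* (ECko 2, 3, 4 and 7) and the gene low in 5 was *Gm22858*. The latter was weakly expressed, listed at 0 in those 5 knockouts, 2.63 FPKM in ECko 4 and 1.10 FPKM in ECko 6. It was 0.628 to 3.53 FPKM in *Traf7*-EChet embryos and was not called by limma (adjusted p = 0.190). With the groups exchanged, 6 genes lay above in 1 *Traf7*-EChet embryo and none in more, and 45, 7, 1 and 2 genes lay below in 1, 2, 3 and 4 embryos.

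**Figure D2:**
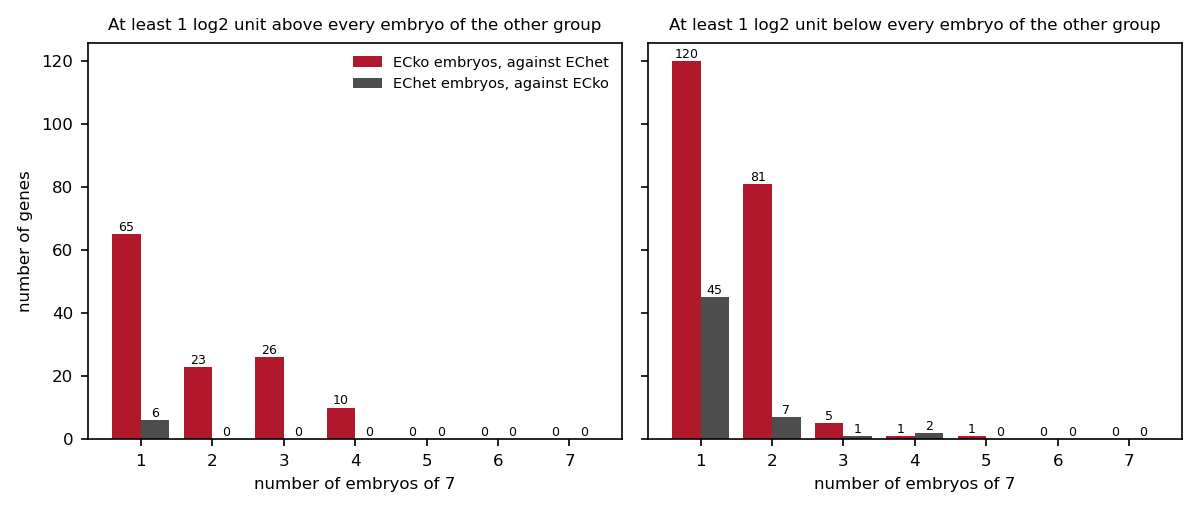
Number of genes (mean of at least 1 FPKM) against the number of embryos of 7 that lie at least 1 log2 unit above (left) or below (right) every embryo of the other group, for *Traf7*-ECko embryos (red) and *Traf7*-EChet embryos (grey). Upward, 26 genes stand apart in 3 knockouts and 10 in 4, against 0 for the heterozygotes.

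Of the genes high in 4 knockouts, 6 of 10 were on the hypoxia response list. The 10 were chosen after their values were seen: *Adm*, *Bhlhe40*, *Ciart*, *Ddit4*, *Egln3*, *Ier3*, *Ppp1r3c* and *Stc1* in ECko 1, 2, 3 and 7, and *Cox4i2* and *Ndufa4l2* in ECko 2, 3, 5 and 7. A further 25 genes stood apart in ECko 2, 3 and 7 together, and 1 more gene in another set of 3. *Bhlhe40*, a transcriptional repressor induced by HIF, was 4.64, 9.91, 6.65 and 10.8 FPKM in ECko 1, 2, 3 and 7, but 0.679, 0.764 and 0.571 FPKM in ECko 4, 5 and 6, which is within the 0.436 to 0.915 FPKM of *Traf7*-EChet embryos. Its knockouts thus formed a high and a low set, and as a group it was not called (1.98, SE 0.65, adjusted p = 0.218).

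*Ddit4*, which restrains mTORC1 under stress, was 89.0, 212, 131 and 154 FPKM in ECko 1, 2, 3 and 7 and 18.2 to 26.4 FPKM in the other 3, against 11.7 to 19.6 FPKM in *Traf7*-EChet embryos (1.92, SE 0.55, adjusted p = 0.194). *Ier3*, an immediate-early stress gene, was 9.01, 17.0, 12.3 and 17.1 FPKM in the same 4 embryos, 2.72 FPKM in ECko 5, and 0.706 and 0.668 FPKM in ECko 4 and 6, below the 0.918 to 1.64 FPKM of *Traf7*-EChet embryos (1.78, SE 0.72, adjusted p = 0.281). *Egln3*, a prolyl hydroxylase that marks HIF for decay, was 13.1 to 24.6 FPKM in ECko 1, 2, 3 and 7 and 4.21 to 6.39 FPKM in ECko 4, 5 and 6, against 4.45 to 6.09 FPKM. In each of these genes ECko 2 or ECko 7 was the highest embryo, and ECko 1 the lowest of the high set. *Adm*, which encodes the vessel-relaxing peptide adrenomedullin, was 4.28, 12.1, 6.74 and 10.3 FPKM in those 4, 0.666, 2.25 and 1.66 FPKM in ECko 4, 5 and 6, and 0.796 to 1.5 FPKM in *Traf7*-EChet embryos.

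*Ndufa4l2*, a hypoxia-induced relative of a respiratory chain subunit, followed a different order. It was 3.25, 20.5, 16.7, 3.17, 8.48, 2.38 and 25.3 FPKM in ECko 1 to 7, and 0.610 to 2.56 FPKM in *Traf7*-EChet embryos, so that 6 of 7 knockouts exceeded every heterozygote and ECko 5 belonged to the high set. Its log2 fold change was 2.51 (SE 0.55, adjusted p = 0.118). *Cox4i2*, the hypoxia-induced form of a complex IV subunit, was likewise 20.4, 25.5, 16.6 and 24.6 FPKM in ECko 2, 3, 5 and 7, against 4.54 to 7.23 FPKM in *Traf7*-EChet embryos (1.10, SE 0.37, adjusted p = 0.228). For both genes ECko 1, high for *Bhlhe40* and *Ddit4*, stood with or near the lower set.

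**Figure D3:**
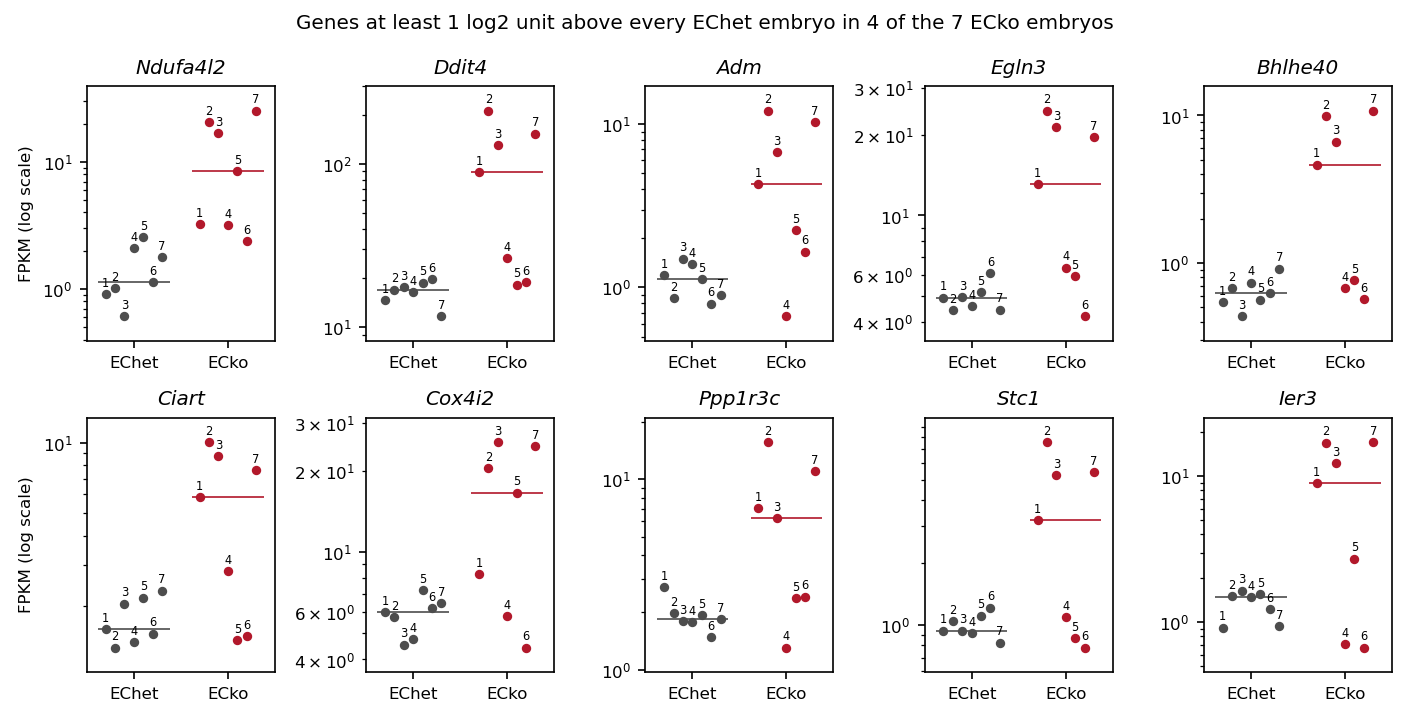
FPKM on a log axis of the 10 genes that lie at least 1 log2 unit above every *Traf7*-EChet embryo in 4 *Traf7*-ECko embryos; points are embryos with their replicate number and lines are group medians. ECko 1, 2, 3 and 7 stand high in 8 genes, while ECko 5 takes the place of ECko 1 for *Ndufa4l2* and *Cox4i2*.

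Over the 38 hypoxia response genes listed, ECko 7 exceeded every heterozygote in 36, ECko 2 in 35, ECko 3 in 33, ECko 1 in 31, ECko 5 in 22, ECko 4 in 9 and ECko 6 in 8. Over all tested genes, the share above every heterozygote was 15.7% in ECko 1, 23.1% in ECko 2, 23% in ECko 3, 11.9% in ECko 4, 12.9% in ECko 5, 15.3% in ECko 6 and 25.8% in ECko 7. The counts in ECko 4 and ECko 6 were the nearest to these shares. The share below every heterozygote was 14%, 20.5%, 22.7%, 11.3%, 11.9%, 13.5% and 22.8% in ECko 1 to 7, and counts of single embryos that follow are to be read against these shares. As a group the list had 1 gene called higher (*Higd1a*), 4 higher without overlap, 30 with an unadjusted p under 0.05 and a higher level, and a median log2 fold change of 0.74, against 0.00 over all genes. Relative to the *Traf7*-EChet mean, the list mean was 0.72, 1.61, 1.40, 0.08, 0.44, 0.00 and 1.58 log2 units in ECko 1 to 7, and -0.09 to 0.17 in the heterozygotes. The order of embryos was thus graded, from ECko 2 and 7 down to ECko 4 and 6, which lay within the heterozygous range.

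Other lists were high in the same embryos. The glycolysis list mean was 0.41, 0.78, 0.50 and 1.00 log2 units in ECko 1, 2, 3 and 7 and -0.03 to 0.19 in ECko 4, 5 and 6, against -0.25 to 0.19 in *Traf7*-EChet embryos. Of 9 tip cell genes, 0 were called by limma (5 at an unadjusted p under 0.05, all higher) and the median was 0.44. *Esm1*, secreted by sprouting endothelium, was 1.14 to 4.20 against 0.687 to 1.36 FPKM (1.00, SE 0.24, adjusted p = 0.146), and *Apln*, the ligand of the apelin receptor, was 4.42 to 8.92 against 3.32 to 5.15 FPKM (0.51, SE 0.15, adjusted p = 0.194). *Kcne3*, a potassium channel subunit, was 0.755 to 5.17 against 0.552 to 1.51 FPKM (1.23, SE 0.42, adjusted p = 0.226). These lists were chosen with earlier results of these data in view, and no p is given for them.

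Of 29 tested genes of ATF4 and serine metabolism, 22 lay above every heterozygote in ECko 3, 19 in ECko 7 and 18 in ECko 2, but 3 to 9 in the other knockouts, beside shares over all genes of 23%, 25.8% and 23.1% in the first 3. Below every heterozygote lay 3, 8 and 5 of these genes in ECko 3, 7 and 2. In the comparison of groups 0 were called by limma (13 at an unadjusted p under 0.05, 12 of them higher). *Chac1*, which breaks down glutathione and is a target of ATF4, was 8.79, 4.53 and 5.96 FPKM in ECko 2, 3 and 7 and 0.20 to 0.398 FPKM in the other knockouts, against 0.117 to 0.512 FPKM in *Traf7*-EChet embryos (1.64, SE 0.79, adjusted p = 0.357). Sterol synthesis divided the embryos in the same way: of 19 genes, 19 lay above every heterozygote in ECko 3, 18 in ECko 7, 13 in ECko 2 and 0 to 2 in the rest, and 0 lay below in those 3 embryos. *Mvd*, a decarboxylase of the mevalonate pathway, was 20.2 to 45.9 against 16.2 to 22.6 FPKM (0.32, SE 0.16, adjusted p = 0.361). The other 4 knockouts had fewer members of both lists above every heterozygote, and ECko 5 had 7 sterol genes below.

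**Figure D4:**
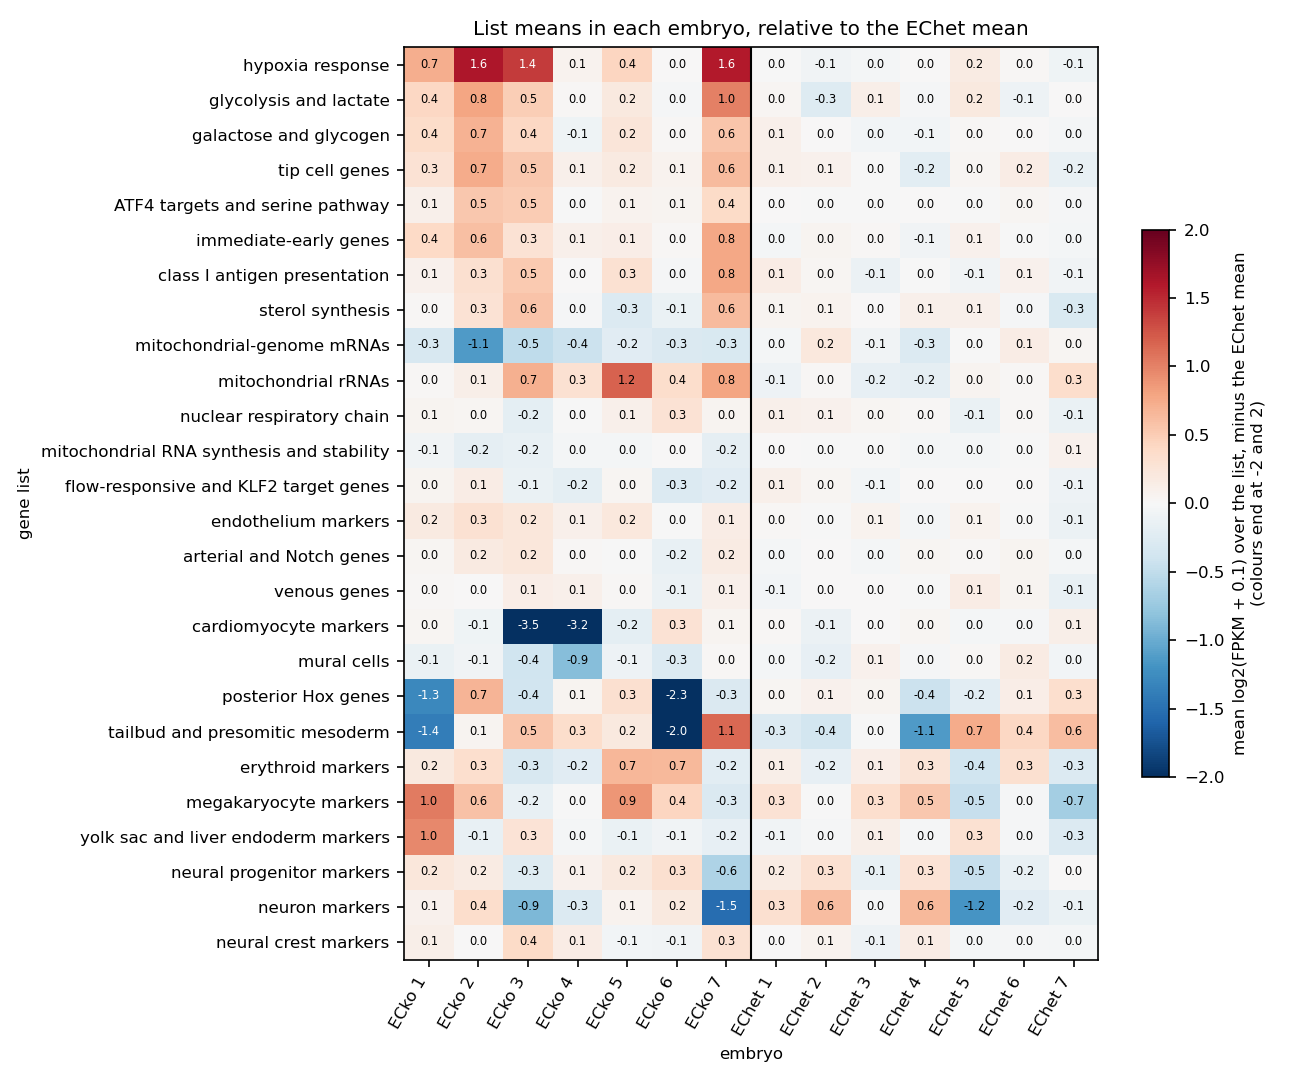
Mean of log2(FPKM + 0.1) over each gene list, minus the *Traf7*-EChet mean, for 26 lists (vertical) in 7 *Traf7*-ECko and 7 *Traf7*-EChet embryos (horizontal), with red above and blue below the heterozygous mean. The hypoxia list reads 1.6 in ECko 2 and 7, the cardiomyocyte list -3.5 and -3.2 in ECko 3 and 4, and the posterior Hox list -1.3 and -2.3 in ECko 1 and 6.

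Genes were called carried where 1 to 3 *Traf7*-ECko embryos lay at least 1 log2 unit outside the heterozygous range while the knockout median lay within it. There were 24 such genes on the high side and 146 on the low side, 169 in all since 1 gene met both, against 3 and 40 for *Traf7*-EChet embryos set against the knockouts. The low genes fell unevenly: 80 in ECko 3, 46 in ECko 4, 30 in ECko 6, 20 in ECko 7, 11 in ECko 2, and 8 each in ECko 1 and ECko 5. The largest single set, 42 genes, was low in ECko 3 and ECko 4 together.

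Of these 42 genes, 10 were on the cardiomyocyte list, which holds 24 of the 17505 tested genes, and 2 on the mural cell list. Without the condition on the knockout median, 67 genes were at least 1 log2 unit low in these 2 embryos and no other knockout. Among them were further members of the cardiomyocyte list, such as *Tnnt2*, *Tnnc1* and *Nkx2-5*. All 24 cardiomyocyte markers lay below every heterozygote in both ECko 3 and ECko 4, with list means of -3.47 and -3.21 log2 units, against -0.19 to 0.29 in the other knockouts. *Myl2*, the ventricular myosin light chain, was 0 and 0.287 FPKM in ECko 3 and ECko 4, 21.9 to 35.2 FPKM in the other 5 knockouts and 19.3 to 28.7 FPKM in *Traf7*-EChet embryos. *Actn2*, which anchors sarcomeric actin, was 0.201 and 0.410 FPKM against 11.2 to 13.0 FPKM in the other 5. *Nppa*, the atrial natriuretic peptide of working myocardium, was 0 and 0.0462 FPKM in those 2 and 6.49 to 11.8 FPKM in the other knockouts, against 3.86 to 7.55 FPKM in *Traf7*-EChet embryos. These 3 genes were at or near 0 in the 2 embryos, but the summed level of the 24 markers was still 62.3 FPKM in the lowest knockout, against 683 to 835 FPKM in *Traf7*-EChet embryos. Other knockouts also had markers below every heterozygote. There were 13 of 24 in ECko 5, 10 in ECko 2, 6 in ECko 7, 3 in ECko 1 and 1 in ECko 6. Over all genes the shares below were 11.9%, 20.5%, 22.8%, 14% and 13.5% in these embryos. The counts in ECko 7, ECko 1 and ECko 6 were near or under these shares. Above every heterozygote lay 13 in ECko 6, 7 in ECko 7, 3 in ECko 1, 2 in ECko 2 and 1 in ECko 5.

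The same 2 embryos were lowest for *Asb2* (0.123 and 0.597 FPKM), *Hspb7* (0.0591 and 0.332 FPKM), *Acta1* (1.10 and 3.04 FPKM), *Myl3* (0.454 and 0.742 FPKM) and *Cox6a2* (0 and 0.0587 FPKM), all of muscle. *Tbx20*, a transcription factor of heart, was lower in 6 of 7 knockouts (1.49 to 3.83 against 3.65 to 4.98 FPKM, -0.60, SE 0.17, adjusted p = 0.190). Markers of endothelium were not low there, with list means of 0.23 in ECko 3 and 0.11 in ECko 4. Both embryos were female, and ECko 3 had the fewest detected genes; whether heart tissue was missing from these samples was not tested. Without the 2 embryos, *Myl2* had a log2 fold change of 0.10 and *Nppa* of 0.67, neither of them called, and 11 genes were called in all.

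A second set of transcripts, those of the posterior body axis, was low in ECko 6 and ECko 1. Posterior Hox genes pattern the hindlimb level and tail, and tailbud genes keep the axis growing. Of 15 tested posterior Hox genes, 14 lay below every heterozygote in ECko 6 and 12 in ECko 1, beside 13.5% and 14% of all genes. The list means of these 2 embryos were -2.32 and -1.29 log2 units. Below also lay 4 in ECko 3, 4 in ECko 7 and 1 in ECko 4. In ECko 2, 9 lay above every heterozygote and 0 below, with a list mean of 0.68, beside 23.1% of all genes above. In ECko 5 and in ECko 7, 3 lay above. *Hoxc10* was 0.110 FPKM in ECko 6 and 2.42 FPKM in ECko 1, 12.3 to 18.2 FPKM in the other 5 knockouts and 4.38 to 17.4 FPKM in *Traf7*-EChet embryos. *Hoxd13*, the last gene of its cluster, was 0.169 and 0.323 FPKM in ECko 6 and ECko 1, and 1.80 to 5.04 FPKM in the heterozygotes; ECko 7, at 1.43 FPKM, also lay below them. *Hoxd12* was listed at 0 in part of the knockouts and reached 1.48 FPKM in others, against 0.116 to 1.36 FPKM. ECko 6 and ECko 1 were the lowest of all 14 embryos for both *Hoxc10* and *Hoxd13*.

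Of 15 tailbud and presomitic mesoderm genes, 11 in ECko 6 and 9 in ECko 1 lay below every heterozygote, and 10 in ECko 7 lay above. *Cdx4*, which drives posterior Hox genes, was 0.0641 FPKM in ECko 6 and 0.486 FPKM in ECko 1, but 25.2 and 32.0 FPKM in ECko 3 and 7, against 1.42 to 23.9 FPKM in *Traf7*-EChet embryos. *Msgn1*, which commits cells to presomitic mesoderm, was listed at 0 in both ECko 1 and ECko 6 and at 0.392 to 11.8 FPKM in the heterozygotes. This group varied among heterozygous embryos as well: the tailbud list mean was -1.13 in EChet 4 and 0.74 in EChet 5. The amount of tail in each sample is not stated, and its part in these values was not tested.

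**Figure D5:**
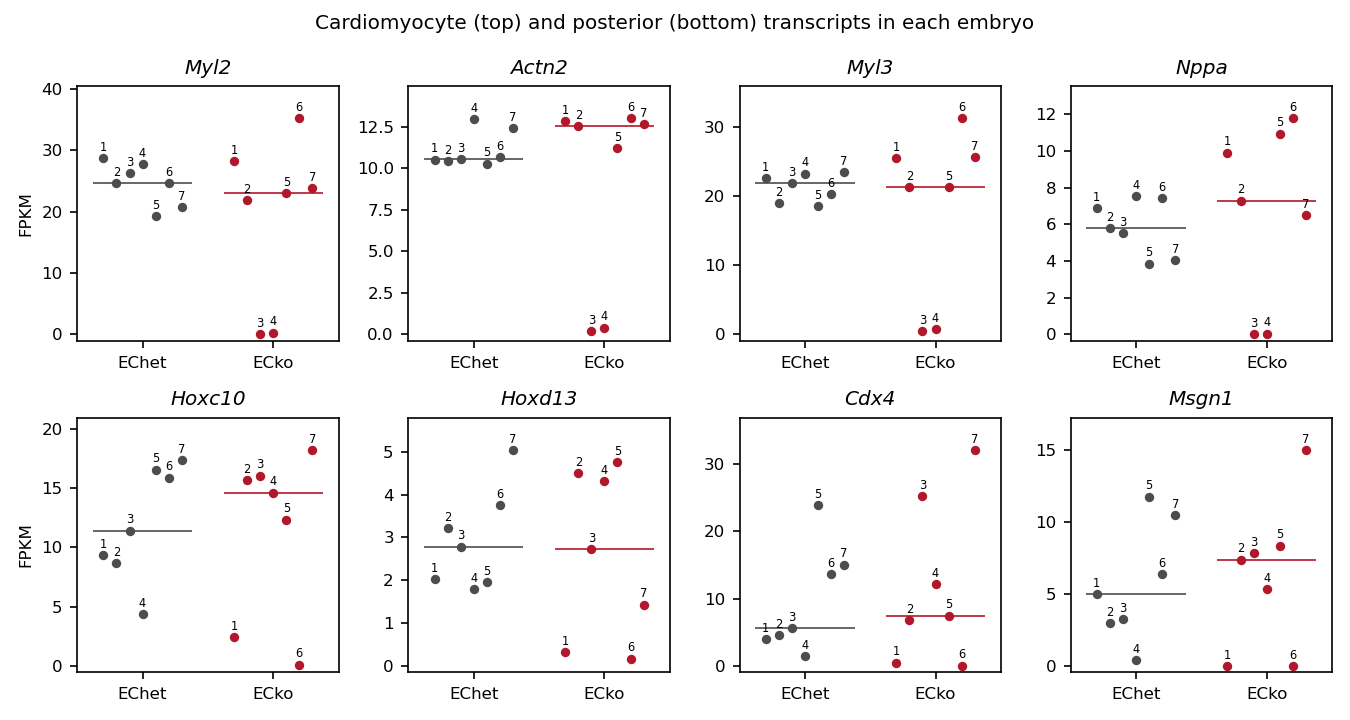
FPKM of 4 cardiomyocyte genes (top) and 4 genes of the posterior axis (bottom) in each *Traf7*-EChet (grey) and *Traf7*-ECko (red) embryo; numbers are replicate numbers and lines are group medians. ECko 3 and 4 sit at or near 0 for the cardiomyocyte genes, and ECko 1 and 6 are the lowest embryos for the posterior genes, from 0 for *Msgn1* to 2.42 FPKM for *Hoxc10* in ECko 1.

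Single embryos carried further transcripts. *Hspa1a*, the inducible heat shock protein, was 16.8 FPKM in ECko 7 and 0.0807 to 0.261 FPKM in the other knockouts, against 0.0452 to 0.256 FPKM in *Traf7*-EChet embryos. ECko 7 was also low in neuronal transcripts, with a list mean of -1.52 log2 units, while EChet 5 had -1.18. *Neurod1*, a factor of new neurons, was 0.461 to 2.98 against 0.900 to 5.07 FPKM (-0.63, SE 0.43, adjusted p = 0.522). ECko 1 was high in transcripts of yolk sac and liver endoderm, with a list mean of 0.97, and had 7.15 FPKM of the apolipoprotein *Apoa1* against 0.984 to 2.00 FPKM in the other knockouts and 0.633 to 4.77 FPKM in *Traf7*-EChet embryos. Of the 169 carried genes, 20 were short RNAs (tRNA, snoRNA, snRNA, miRNA and similar), among them the tRNA *mt-Tl1* (listed at 0 in ECko 3 and 7, 0.517 FPKM in ECko 2) and *Gm27343* (listed at 0 in ECko 3); genes shorter than a sequenced fragment are poorly measured in FPKM.

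Transcripts of endothelium overlapped between the groups, though most markers lay slightly higher in the knockouts. All 22 endothelium markers were detected, and their summed level was 191 to 230 FPKM in *Traf7*-ECko and 179 to 212 FPKM in *Traf7*-EChet embryos. None was called by limma and none was without overlap. The log2 fold change was above 0 in 18 and below 0 in 4, with a median of 0.13. At an unadjusted p under 0.05, 9 were higher and 0 lower, against 1407 higher of all 17505 tested genes. Relative to the *Traf7*-EChet mean, the list mean was 0.18, 0.30, 0.23, 0.11, 0.21, -0.01 and 0.14 log2 units in ECko 1 to 7. It was -0.12 to 0.08 in the heterozygotes. *Pecam1*, the junctional adhesion molecule of endothelium, was 5.58 to 9.20 FPKM in *Traf7*-ECko and 5.89 to 6.5 FPKM in *Traf7*-EChet embryos, above every heterozygote in 6 knockouts and below in ECko 6 (0.22, SE 0.08, adjusted p = 0.261). *Stab1*, a scavenger receptor of sinusoidal endothelium and macrophages, was 2.12 to 4.32 against 1.48 to 2.21 FPKM (0.60, SE 0.13, adjusted p = 0.112). *Flt1*, the decoy receptor of VEGF, was 2.29 to 6.00 against 1.96 to 3.30 FPKM (0.51, SE 0.19, adjusted p = 0.261).

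Blood transcripts varied in both groups. Erythroid marker sums were 3715 to 9541 FPKM in *Traf7*-ECko and 3558 to 7106 FPKM in *Traf7*-EChet embryos, with none called of 17 tested (1 at an unadjusted p under 0.05). *Hba-a1*, an alpha globin, was 283 to 837 against 245 to 532 FPKM (0.35, SE 0.25, adjusted p = 0.552). In ECko 5 and ECko 6, 14 of 17 erythroid genes exceeded every heterozygote, beside 12.9% and 15.3% of all genes in these embryos, against 0 to 6 erythroid genes in the other knockouts. Macrophage and blood progenitor markers were sparse in both groups, with sums of 5.76 to 10.5 against 6.25 to 9.05 FPKM and *Trem2* at 0 in all embryos. Immediate-early genes were higher in level in 18 of 18 tested, with 0 called by limma (6 at an unadjusted p under 0.05). *Junb* was 2.47 to 5.37 against 2.10 to 3.21 FPKM and *Egr1* 0.730 to 2.06 against 0.504 to 0.926 FPKM (adjusted p = 0.20 and 0.239). The knockouts differed in this list, with means of 0.40, 0.61, 0.28, 0.10, 0.13, 0.03 and 0.77 log2 units in ECko 1 to 7. Above every heterozygote lay 8, 12, 8, 7, 4, 4 and 12 of the 18, and below lay 1, 0, 3, 2, 0, 2 and 2.

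In the lists of arterial and Notch, venous, mural, cardiac cushion, megakaryocyte, neural progenitor, neural crest, p53, AMPK, senescence, DNA replication and interferon genes, limma called 0 genes, with 0 to 4 per list at an unadjusted p under 0.05 and list medians from -0.17 to 0.36. Single embryos departed further in some of these lists. In ECko 7, 13 of 17 arterial and Notch genes lay above every heterozygote and 3 below. Of 18 p53 genes there, 11 lay above and 3 below. Of 21 DNA replication genes there, 14 lay below and 2 above, and of 11 neural progenitor genes 7 below and 0 above. Of 16 AMPK genes, 10 lay below and 1 above in ECko 2. Over all genes, the shares were 25.8% above and 22.8% below in ECko 7, and 20.5% below in ECko 2. Of 15 genes of galactose and glycogen metabolism, *Galk1* alone was called and the median was 0.15. A single trophoblast marker was expressed enough to be tested, and it was not called.

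Over all tested genes the knockouts were the more scattered group. The SD of log2(FPKM + 0.1) was larger among *Traf7*-ECko embryos in 68.4% of genes, with medians of 0.236 and 0.181. The distance of an embryo from the mean of the rest of its own group was 62.5 (ECko 5) to 88.2 (ECko 3) log2 units over all genes among knockouts, and up to 72.7 among heterozygotes. ECko 4, 5 and 6 lay nearer to the heterozygous mean (66.0, 60.3 and 65.2) than to the rest of the knockouts (67.9, 62.5 and 71.4), whereas every heterozygote lay nearer to its own group. A mean of 7 embryos is steadier than one of 6, which shortens the first distance slightly.

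Within a group, no relation between the genes examined passed an adjusted p of 0.05. There were 12 relations, 6 gene pairs in each group of 7, tested by exact pairing permutation. Among knockouts, *Galk1* and *Ndufa4l2* gave the smallest p (Pearson r = 0.74, exact p = 0.0627, Spearman rho = 0.71, exact p = 0.0881, adjusted p = 0.752 and 0.762), and r was 0.64 without the 2 embryos farthest from the median of *Galk1*. *Klf2* and *Ndufa4l2* gave r = -0.54 (exact p = 0.215) and rho = -0.39 (exact p = 0.396) among knockouts, with adjusted p = 0.777 and 0.762 and r = -0.54 without the 2 embryos farthest from the *Klf2* median. *Traf7* and *Klf2* gave r = -0.41 (exact p = 0.356) and rho = -0.39 (exact p = 0.396), with r = 0.35 without 2 embryos, so that the sign rested on those. With 7 embryos a group, a p that misses the threshold does not show that such relations are absent.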

How the data were processed

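Total RNA of whole E9.5 embryos (RNeasy Plus Micro kit, QIAshredder) was sequenced by a service provider. Per the submitters' processing notes, reads were aligned with STAR to mm10; the study's list of software also names HISAT2 and featureCounts without saying for which step, and the annotation and strand setting were not stated. Deposited values are FPKM per gene, made by the authors, 1 column per embryo and not pooled. FPKM times gene length gave whole reads (tolerance 0.01) for 100% of values in every embryo, which supplied the read totals. The table of the other 12 embryos, scaled separately, was not used. Library factors (median of ratios over genes at 1 FPKM or more) were divided out, 0.1 was added, and log2 values of genes with a mean of at least 0.1 FPKM were tested with limma 3.58.1 (R 4.3.3; trend and robust, two-sided, Benjamini-Hochberg over 17505 genes). The script was tested on simulated data with the same variation between embryos set for every gene and both groups, unlike these data. Single genes also had an exact permutation test over embryos. Gene IDs matched GENCODE M21 in 99.8% of 54532 cases, and 27 names turned into dates were restored. 3 listed symbols were not matched; Aldoa has a second table entry.

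The genes and 36 lists described were chosen with earlier results of these data known. Named genes were *Traf7*, those the study names, called genes of smallest p and largest fold change, the 3 of smallest p in a list, genes without overlap of widest gap and 12 carried genes of widest distance; *Hif1a*, *Chac1*, *Cdx4*, *Msgn1*, *Hoxd13* and the genes high in 4 knockouts were added after their values were seen. Replicates are separate embryos. No 2 libraries of a group agreed within sampling noise (chi-square of 5.13 to 52.2 per gene). The alternatives tried were other added constants, filters and scalings, leaving out each embryo, a replicate block, array weights, sex or detected genes as covariates, and limma-voom on recovered reads; 3 more (without ECko 3 and 4, without ECko 1 and 6, male embryos only) were chosen after seeing the data.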

Additional observations from a re-analysis of the deposited data

Results flagged for a closer look

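Each of 78 named genes was examined in both groups of 7 embryos for a single embryo separated from the rest by a larger part of the group's range than Dixon's critical value allows. For genes not chosen by their values, chance does so in about 1 of 20 groups. Some of these genes were named because an embryo lay far outside the other group, so that the number passing cannot be set against that rate. Of 156 groups, 15 passed the critical value, 6 among knockouts and 9 among heterozygotes. Among *Traf7*-ECko embryos, ECko 2 stood below the rest for *mt-Nd5* (226 FPKM, the others 317 to 374), *mt-Nd6* (227 FPKM, the others 327 to 382) and *Gpr63* (0.764 FPKM, the others 1.05 to 1.30). *Hspa1a* was 16.8 FPKM in ECko 7, *Apoa1* was 7.15 FPKM in ECko 1, and *Gm27343* was 0 in ECko 3 (the others 4.66 to 9.63 FPKM).

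Among *Traf7*-EChet embryos, EChet 7 stood below the rest for *Galk1* (63.2 FPKM, the others 73.9 to 79.0), *Trappc6a* (6.16 FPKM, the others 7.11 to 7.56) and *Mvd* (16.2 FPKM, the others 20.5 to 22.6), and above for *mt-Rnr2* (77.1 FPKM, the others 47.6 to 55.5). EChet 5 stood above for *Pkm* (775 FPKM, the others 657 to 708) and *Apoa1* (4.77 FPKM, the others 0.633 to 1.47), and below for *Neurod1* (0.900 FPKM, the others 2.66 to 5.07). *H2-Q4* was 3.39 FPKM in EChet 6, above 1.67 to 2.24 in the others, and *Msgn1* was 0.392 FPKM in EChet 4, below 2.99 to 11.8 in the others.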

How the results depend on the processing

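All 17 called genes kept their direction and an unadjusted p under 0.05 in every alternative run. Against 17 genes called, there were 5 without a filter on low values, 31 with array weights, 8 with limma-voom on recovered reads (7 of them shared), 0 with sex as a covariate, and 3 to 51 with 1 embryo left out. With the replicate number as a block, 0 were called (2369 at an unadjusted p under 0.05, lowest adjusted p 0.0817); the numbers do not pair the embryos, since deviations of same-numbered embryos correlated at -0.0805 to 0.111 and 2 of 7 correlated best with their own number. Of 3 alternatives chosen after seeing the data, the fit without ECko 3 and 4 called 11, that without ECko 1 and 6 called 31, and that on male embryos 0. The cause of these moves was not tested, though fewer embryos enter the last 3.

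Against 1 gene called with at least a 2-fold change, there were 0 with 1 FPKM added, with the replicate block, with sex as a covariate and in male embryos, 3 with array weights, 2 without ECko 3 and 4, 10 without ECko 1 and 6, and 1 to 8 with 1 embryo left out. Against 90 genes without overlap, there were 306 without ECko 3 and 4, 270 without ECko 1 and 6, 911 in male embryos, and 104 to 200 with 1 embryo left out, as fewer embryos overlap less. Against 169 carried genes, there were 70 with 1 FPKM added, 473 at a distance of 1.5-fold, 49 at a mean of at least 5 FPKM, and 126 to 198 with 1 embryo left out. *Klf2* gave -1.34 with the replicate block (adjusted p = 0.0817), -1.22 with sex as a covariate (0.0581), -1.06 in male embryos (0.145), and -1.43 to -1.22 with 1 embryo left out.

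No log2 fold change of a called gene turned; those that did were mostly of heart and posterior genes. Without ECko 3 and 4 and in male embryos they were 0.0023 and 0.028 for *Asb2*, 0.10 and 0.14 for *Myl2*, 0.17 and 0.13 for *Actn2*, 0.15 and 0.0087 for *Hspb7*, 0.23 and 0.21 for *Myl3*, 0.37 and 0.37 for *Cox6a2*, and 0.67 and 0.82 for *Nppa*; *Acta1* gave 0.14 without ECko 3 and 4. Male embryos gave 0.059 for *Neurod1* and -0.14 for *Apoa1*. With 1 embryo left out *Hoxc10* ranged from -1.03 to 0.049 and *Cdx4* from -1.04 to 0.23, both highest without ECko 6, and *Gm27343* from -0.81 to 0.29, highest without ECko 3. Without ECko 1 and 6 *Hoxc10* gave 0.48 and *Cdx4* 1.00, *Msgn1* 1.02 and *Hoxd13* 0.23. *Gm27343* gave 0.19 with detected genes as a covariate, 0.28 without ECko 3 and 4, and 0.31 in male embryos.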
